A study of Homo sapiens with 6 samples.

Results

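The transcripts described here belong to the CTBP1 locus and to other transcriptional corepressors in LNCaP, an established human prostate cancer cell line that responds to androgens. Members were 9 genes chosen with earlier differences between DHT and control on these arrays known (CTBP1, its antisense transcript CTBP1-AS, CTBP2, ATN1, NCOR1, SIN3A, HDAC1, HDAC2 and HDAC3), and every probe set that the platform annotation assigns to 1 of them alone was taken. This gave 23 of the 54675 probe sets on the array, for 8 of the 9 genes, out of 19775 genes that the annotation names in this way. NCOR1 had no such probe set and was not analysed here. All cells were first kept for 3 days in medium free of phenol red with 10% charcoal-stripped serum, which holds little steroid. The treated group comprised 3 cultures given dihydrotestosterone (DHT), an androgen made from testosterone, at 100 nM for 48 h. The control group was another 3 cultures, and the sources used here do not say what they were given. Replicates are labelled as biological, with nothing on separate days or passages, so the spread between them may be partly technical.

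Corepressors are proteins that transcription factors, steroid receptors among them, recruit to silence genes, mostly by bringing in enzymes that remove acetyl groups from histones. CTBP1 and CTBP2 are paralogous corepressors that bind NADH and dock on short motifs of their partner proteins. NCOR1 carries HDAC3 to unliganded or antagonist-bound nuclear receptors, and SIN3A is the scaffold of a complex that holds the deacetylases HDAC1 and HDAC2. ATN1, atrophin-1, is a corepressor with a polyglutamine tract whose expansion causes a neurodegenerative disease. CTBP1-AS is a long noncoding RNA transcribed from the opposite strand of CTBP1, known from earlier work as an androgen-induced transcript of prostate cancer cells that lowers CTBP1. In the RefSeq gene table of assembly GRCh38.p14 CTBP1-AS overlaps CTBP1 and the noncoding gene CTBP1-DT lies beside it.

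The start of CTBP1 is shown with that of its paralogue CTBP2. With the deposited signals, all DHT cultures lay below all controls in 3 of 4 CTBP1 probe sets and 0 of 6 for CTBP2. Over the array this was so in 13.8% of tested probe sets, and the difference between the genes was not tested. Both stretches are the 250 bases upstream of a RefSeq transcript start in GRCh38.p14, printed 5′ to 3′ on the minus strand, on which both genes lie. They are the CTBP1 start at chr4:1249131-1249380, which overlaps the RefSeq start window of CTBP1-DT on the plus strand, and a CTBP2 start at chr10:125161031-125161280. Capitals mark the GC box GGGCGG on either strand, and neighbouring matches can overlap.
CTBP1: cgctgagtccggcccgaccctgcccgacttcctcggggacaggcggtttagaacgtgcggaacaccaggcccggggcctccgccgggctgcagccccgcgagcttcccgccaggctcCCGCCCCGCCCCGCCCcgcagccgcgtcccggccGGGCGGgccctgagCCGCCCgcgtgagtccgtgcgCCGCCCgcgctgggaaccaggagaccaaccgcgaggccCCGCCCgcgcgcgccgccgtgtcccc
CTBP2: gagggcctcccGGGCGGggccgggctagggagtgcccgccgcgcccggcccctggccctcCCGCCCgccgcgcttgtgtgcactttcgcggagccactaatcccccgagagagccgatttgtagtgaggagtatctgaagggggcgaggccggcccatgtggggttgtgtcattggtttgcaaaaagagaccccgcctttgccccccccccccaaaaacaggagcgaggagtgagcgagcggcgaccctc
The CTBP1 stretch held 7 GC boxes at a GC content of 80.4%, and the CTBP2 stretch held 2 at 68.8%. The count depends on the start chosen. The other CTBP1 starts in RefSeq held 0 GC boxes each at 60.4% and 60.8% GC, and the other CTBP2 starts held 2, 1, 0 and 0 at 52.4% to 74.8% GC. RefSeq windows were at hand for 6 of the measured members, 13 in all counting alternative starts (3 for CTBP1, 5 for CTBP2). No window was at hand for ATN1 or CTBP1-AS, so their starts were not searched. A GC box was in 8 of these 13 windows and in 42.6% of all 35116 windows of this length. The androgen response element, AGAACA and TGTTCT with 3 bases between, and its 6-base core AGAACA alone, on either strand, were in 0 of the 13, against 0.00285% and 12.4% of all windows. These are letters in short windows and not binding sites, and the arrays do not measure binding.

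Across the array, 10.3% of the 32768 tested probe sets passed an adjusted p of 0.05 in limma (Benjamini-Hochberg), 5.09% as higher and 5.25% as lower with DHT. The groups did not overlap in 28.7%. The deposited signals had been scaled to a common trimmed mean, so all differences are relative to the average transcript, and the array medians lay at 25.7 or above on all 6 arrays. Signal at the 3′ end over that at the 5′ end, a measure of RNA integrity and labelling, was 1.37 ± 0.05 in the controls and 1.77 ± 0.07 with DHT for ACTB, and 0.904 ± 0.044 and 1.06 ± 0.05 for GAPDH (SD, n = 3 each). Its part in the differences below was not tested. Signals of the hybridisation spikes, bacterial and phage RNAs added in fixed amounts, were higher with DHT, and scaling the arrays to them lowers the differences. The LNCaP label matched its markers, with 10 of 10 luminal prostate markers above the limit for dim probe sets (a mean signal of 17.3) and 0 of 4 basal epithelial markers above it. The summed luminal signal was 15305 to 15733 in the controls and 25342 to 25971 with DHT. Its members went in both directions. KLK3 had means of 2186 and 8985 and TMPRSS2 of 304 and 2064, while means of HOXB13, FOXA1, KRT8 and EPCAM were lower with DHT. Of the fibroblast and stroma markers 5 of 7 were above it, with a summed signal of 506 to 557 in the controls and 491 to 555 with DHT. Of the endothelial markers 2 of 4 were above it, PECAM1 and VWF, with a list sum of 210.1 to 221 and 206 to 274, and CDH5 and KDR were not. Of the leukocyte markers 2 of 4 were above it, CD3E and MS4A1, with a sum of 69.2 to 110.5 and 48.9 to 77.4, and PTPRC and CD14 were not. Of the neuroendocrine markers 2 of 4 were above it, CHGA and ENO2, with a sum of 257 to 279 and 166 to 260.1, and SYP and INSM1 were not. The part of such cells in the differences was not tested.

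Of the 23 member probe sets 22 passed the limit on dim signal. Because the members were chosen with this contrast known, their differences are descriptions without p-values, and counts past a threshold stand only beside the same share over the array. Among the 22, 6 passed the same threshold, 5 as lower and 1 as higher, beside the 10.3% of all tested probe sets, and the groups did not overlap in 8, beside 28.7% (31.0% when each gene is read from 1 probe set). The 1 higher, CTBP1-AS, was tested only through its signals with DHT, so both counts include a probe set that its own difference let in. With the lowest 60% of probe sets removed it was not tested, and 5 passed, all as lower. The median difference over the 22 was -0.04 on the log2(signal + 16) scale, against 0.01 over all tested probe sets. The count that passed was 4 to 7 over the 15 alternatives other than spike scaling, and 16, of which 15 were lower, with spike scaling. The 6 probe sets belonged to CTBP1-AS, CTBP1 and ATN1, and none to CTBP2, SIN3A or the deacetylases.

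**Figure D1:**
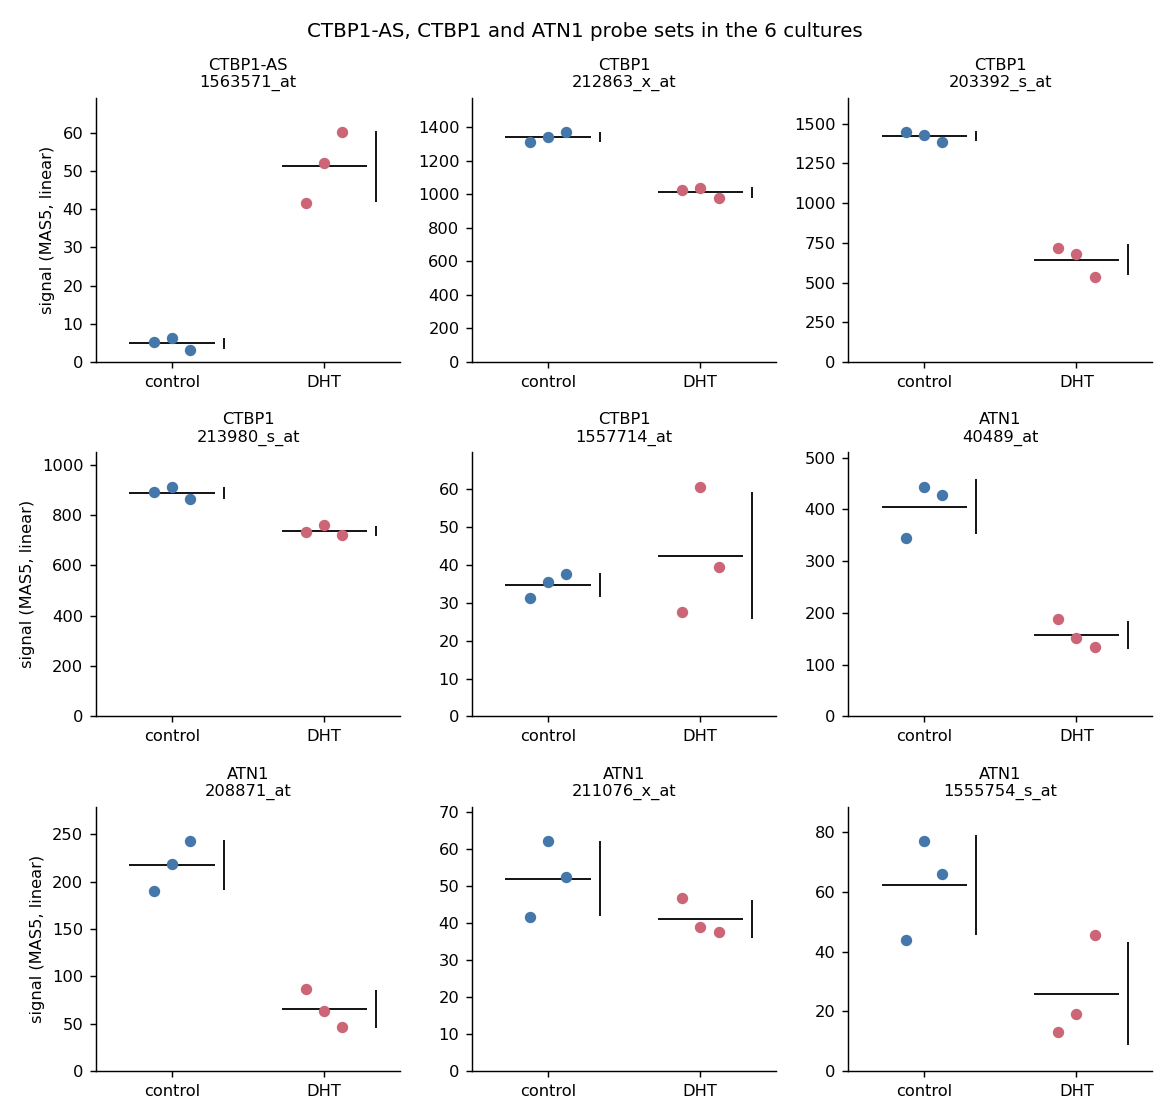
Signal (MAS5, linear scale, each panel with its own axis from 0) of every CTBP1-AS, CTBP1 and ATN1 probe set in the 3 control and 3 DHT cultures. Points are cultures, horizontal lines group means and vertical lines 1 SD on either side; the CTBP1-AS points with DHT (41.5 to 60.2) lie above all controls, and in 3 of 4 CTBP1 and 2 of 4 ATN1 panels all DHT points lie below all controls.

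CTBP1-AS was the member furthest above the controls. Its probe set (1563571_at) had signals of 5.15, 6.20 and 3.22 in the control cultures and of 41.5, 52.2 and 60.2 with DHT. Every DHT culture was above every control, and all 3 controls were under the 17.3 used as the limit for a probe set's mean. The probe set therefore passed that limit only through the group in which it was high. The group means were 4.85 ± 1.51 and 51.3 ± 9.34 (SD, n = 3 each). The difference was 1.68 ± 0.22 on the log2(signal + 16) scale (SE of the fit over all tested probe sets). No ratio is given against controls this dim, and the size of the difference depends on the constant added, at 3.18 with 1 and 0.74 with 64. It was 1.41 with spike scaling. It was not tested where the dimmest 60% of probe sets were removed.

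CTBP1 itself was lower with DHT in 3 of its 4 probe sets. The brightest without the suffix _x_at (203392_s_at) had 1446, 1431 and 1385 in the controls and 719, 679 and 534 with DHT, without overlap. Its mean went from 1421 ± 31.5 to 644 ± 97.2, which is 2.21-fold lower, with a difference of -1.13 ± 0.10. An absolute difference of this size or more was found in 0.589% of all tested probe sets. The other probe sets differed in size. Probe set 212863_x_at, whose suffix marks possible cross-hybridisation, had 1312, 1340.1 and 1369 in the controls and 1023, 1038 and 975 with DHT, a 1.32-fold lower mean and a difference of -0.40 ± 0.07. Probe set 213980_s_at had 891, 912 and 864 against 731, 760.4 and 721, 1.21-fold lower at -0.26 ± 0.07. The groups stayed apart in both, by less than in the first. On the log2 scale the difference of 203392_s_at minus that of 213980_s_at was -0.87. Probe set 213980_s_at passed the threshold of the whole-array fit with the deposited values but not under 8 of the 15 alternatives, the omission of any 1 culture among them. The dim probe set 1557714_at, with 31.1, 35.4 and 37.5 in the controls and 27.4, 60.5 and 39.3 with DHT, overlapped between the groups at 0.17 ± 0.22. The exons each probe set reads were not analysed here.

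Sense and antisense differences at this locus had opposite signs, and within the DHT group the culture with the most CTBP1-AS (60.2) also had the least CTBP1 in 203392_s_at (534) and in both other bright probe sets. A relation within 3 cultures cannot be tested. That culture was also the lowest with DHT for genes elsewhere, ATN1 in 40489_at (134) and HDAC10 (52.5) among them. It was not the lowest for PHF12 (593 against 572 in replicate 1) or TLE5 (241 against 198 in replicate 1). The order was therefore not particular to CTBP1. The same culture, DHT replicate 3, had the highest ACTB 3′ to 5′ ratio of the group, 1.85 against 1.76 and 1.72, but not the highest GAPDH ratio, 1.07 against 1.01 in replicate 1 and 1.11 in replicate 2. The part of RNA integrity was not tested. CTBP1-DT, the noncoding gene next to CTBP1, had overlapping groups in both probe sets (0.06 ± 0.25 in the tested 232066_x_at, with 115, 271 and 142 in the controls and 216, 136 and 174 with DHT). Of the 3 protein-coding genes on either side of CTBP1 in the RefSeq table, looked at after the CTBP1 values were seen, MAEA and UVSSA were tested. MAEA, a subunit of a ubiquitin ligase, had 501 ± 34.2 and 473 ± 10.1, and UVSSA, a protein of transcription-coupled repair, 366 ± 32.9 and 329 ± 25.5. Neither passed in limma (-0.08 with adjusted p = 0.588 and -0.14 with adjusted p = 0.373, over genes).

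CTBP2, the paralogue of CTBP1, was read by 6 probe sets, none of which passed. The brightest (210554_s_at) had 1275, 1268 and 1259 in the controls and 1107, 1383 and 1206 with DHT, so that the DHT cultures lay on both sides of tightly placed controls. Its difference was -0.05 ± 0.08, with a 95% interval of -0.23 to 0.14. Over the array, 15.0% of tested probe sets had all DHT cultures above all controls. Here a further pair of bright probe sets did so, by a small margin. These were 210835_s_at, with 1107, 1052 and 1083 against 1246, 1143 and 1284 (0.18 ± 0.07), and 201220_x_at, with 850.4, 959 and 865 against 973, 985 and 1024 (0.16 ± 0.07). Probe set 201218_at had 911, 836 and 921 in the controls and 932, 908 and 932 with DHT (0.06 ± 0.07). Probe set 201219_at had 189.5, 163 and 195 against 209, 190.2 and 215 (0.16 ± 0.10), and the dim 215377_at had 21.3, 5.41 and 28.1 against 29.4, 17.1 and 24.5 (0.26 ± 0.29). These last groups overlapped. With spike scaling all but the dimmest of the CTBP2 probe sets had differences of -0.35 to -0.59, so that a direction for CTBP2 depends on the scale, whereas CTBP1 (-1.67 in 203392_s_at) and CTBP1-AS (1.41) kept theirs. The difference between the CTBP1 and CTBP2 responses was not tested.

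ATN1 had the largest negative differences of the members. Probe set 208871_at had 189.8, 219 and 243 in the controls and 86.1, 63.7 and 46.7 with DHT. All DHT cultures were below all controls, and the mean went from 217 ± 26.5 to 65.5 ± 19.7, 3.32-fold lower (-1.54 ± 0.17). The brightest probe set (40489_at), from which the gene was read, had 344, 443 and 428 in the controls and 188, 152 and 134 with DHT. Its mean was 2.56-fold lower, 405 ± 53.4 against 158 ± 27.1 (-1.28 ± 0.13), the fourteenth lowest difference of 14269 tested genes. Both probe sets cite the same source sequence in the platform annotation, so they are not independent. The remaining pair cite another. Probe set 1555754_s_at had 43.9, 77.0 and 66.2 against 12.9, 19.2 and 45.6, where 1 DHT culture lay above the lowest control (-0.96 ± 0.28). Probe set 211076_x_at, possibly cross-hybridising, had 41.6, 62.0 and 52.3 against 46.8, 38.7 and 37.4 and overlapped (-0.25 ± 0.18). The difference of 40489_at minus that of 211076_x_at was -1.03 on the log2 scale.

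**Figure D2:**
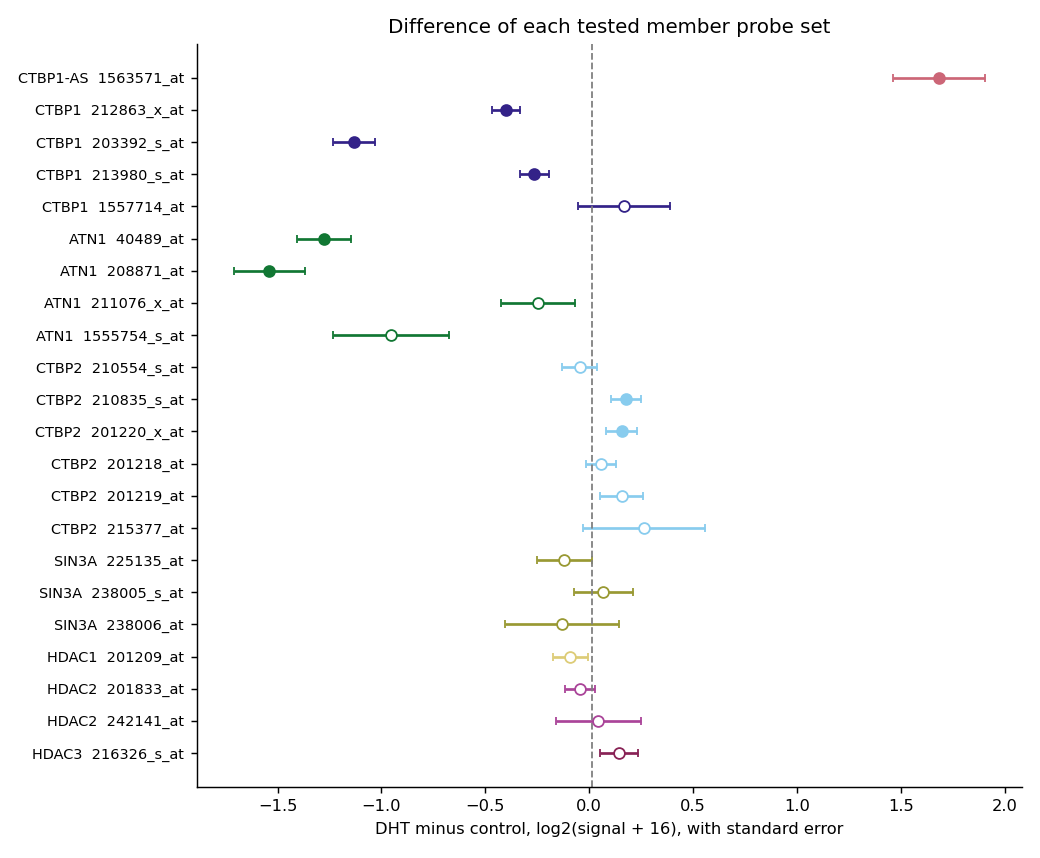
Difference between DHT and control on the log2(signal + 16) scale for the 22 tested member probe sets, grouped by gene, with the standard error of the whole-array fit as bars. Filled points are probe sets whose groups do not overlap (8 of 22), and the dashed line is the median of all tested probe sets (0.01); CTBP1-AS lies at 1.68, ATN1 reaches -1.54, and the CTBP2, SIN3A and HDAC probe sets lie between -0.13 and 0.26.

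SIN3A, the scaffold, had 4 probe sets, of which 238189_at was too dim to be tested (2.18 to 7.89 over the 6 cultures). The brightest (225135_at) had 236, 217 and 195 in the controls and 241, 192 and 164 with DHT, with wide overlap and a difference of -0.12 ± 0.13. The others had 0.07 ± 0.14 (238005_s_at, 70.0 to 92.6 in the controls and 77.2 to 91.5 with DHT) and -0.13 ± 0.27 (238006_at, 12.3 to 32.4 and 10.6 to 19.5).

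The deacetylases HDAC1, HDAC2 and HDAC3 had overlapping groups in all 4 of their probe sets. HDAC1 (201209_at) had 1578, 1664 and 1586 in the controls and 1407, 1718 and 1425 with DHT, a difference of -0.09 ± 0.09 with a 95% interval of -0.28 to 0.10. HDAC2 (201833_at) had 973, 989 and 900.1 against 957, 879.5 and 940.2, a difference of -0.04 ± 0.07 with an interval of -0.20 to 0.12. Its second, dim probe set (242141_at) had 24.8 to 36.6 and 26.7 to 40.7. HDAC3 (216326_s_at), the catalytic partner of NCOR1, had 226, 241 and 222 against 238, 274 and 257, where the lowest DHT culture lay just under the highest control (0.15 ± 0.09, interval -0.06 to 0.35). Over the 13 tested probe sets of CTBP2, SIN3A and these deacetylases, differences ran from -0.13 to 0.26. None of the 13 passed the adjusted threshold in limma, beside 10.3% of all tested probe sets, and 1 had an unadjusted p under 0.05, beside 23.9%. The 13 leave out CTBP1, CTBP1-AS and ATN1, the genes with a probe set that passed. The absence of a pass was therefore set by the grouping, and neither count says how these genes compare with the array. With spike scaling the brightest HDAC1, HDAC2, HDAC3 and SIN3A probe sets had -0.64, -0.59, -0.37 and -0.63, while the median of all tested probe sets was -0.43.

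**Figure D3:**
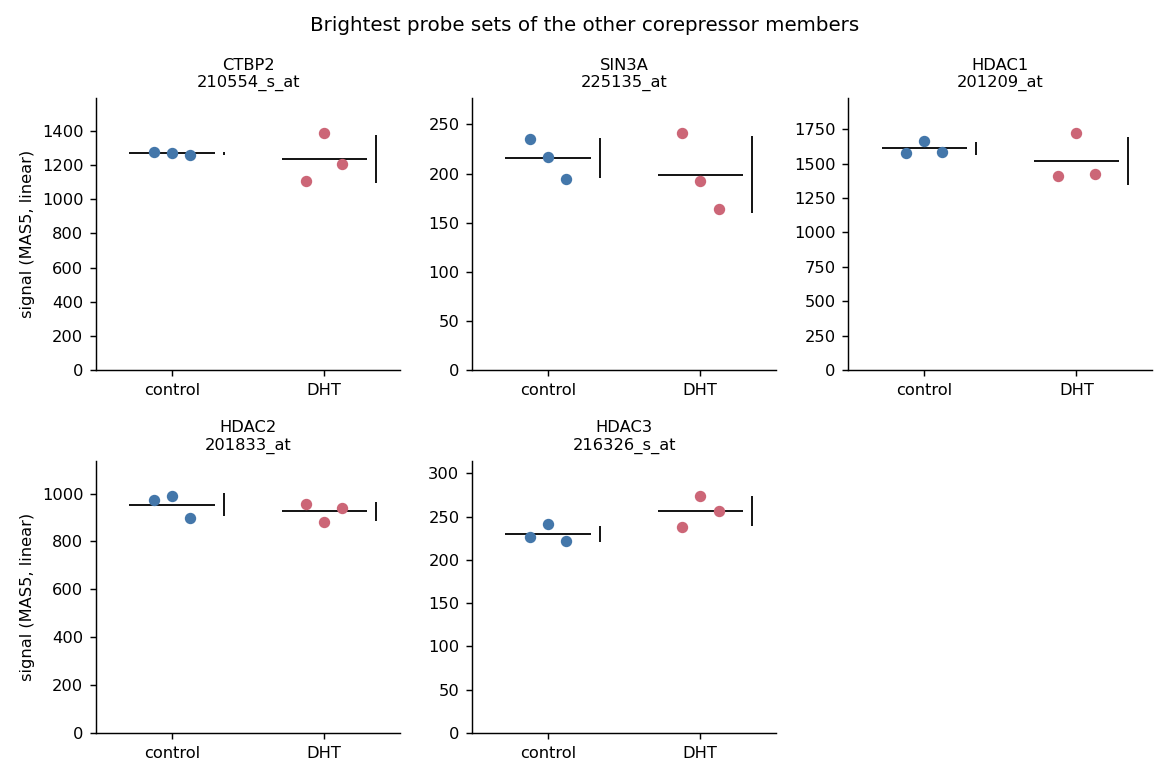
Signal (MAS5, linear scale, axes from 0) of the brightest probe set of CTBP2, SIN3A, HDAC1, HDAC2 and HDAC3 in the 3 control and 3 DHT cultures. Points are cultures, horizontal lines group means and vertical lines 1 SD on either side; the groups overlap in all 5 panels, with HDAC1 at 1578 to 1664 in the controls and 1407 to 1718 with DHT.

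The other genes of corepressor complexes were taken from 6 lists drawn up from general knowledge, without these members. Earlier results of these data were known when the lists were chosen, and the tests and shares below carry that limit. Of 112 genes listed, 94 were tested, and 6 rose and 11 fell in limma at an adjusted p of 0.05 over genes. That is 18.1%, beside 12.9% of all tested genes (6.95% higher and 5.91% lower). The median difference was -0.02, against 0.02 over all 14269 tested genes. The number that rose depended on the fit. It was 0 without the intensity trend and with spike scaling, 3 with equal array medians, and 2, 2, 3 and 1 without control replicate 1, control replicate 3, DHT replicate 2 and DHT replicate 3. With spike scaling, under which the median of all tested genes was -0.45, all 6 genes that rose had values below 0. Of the genes named below that passed, KDM4A, PHF12, GATAD2A, GATAD2B, HDAC10, TLE5 and TRIM28 passed under all 17 alternatives. TBL1XR1 and HMG20B did not pass without control replicate 1, control replicate 3 or DHT replicate 3. MNT did not pass without control replicate 3, nor RREB1 and ZMYND11 without DHT replicate 3. Neither these genes nor MTA1 passed without the intensity trend. With the mean of probe sets RREB1 did not pass either (0.16, limma adjusted p = 0.354). The number that fell was 7 without the trend, 17 with all probe sets of a gene averaged and 67 with spike scaling.

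The NuRD complex, which couples deacetylation to nucleosome remodelling, had 12 tested genes, of which 4 fell and 0 rose, with a median of -0.22. That is 33.3% passed, beside 12.9% of all tested genes. At an unadjusted p under 0.05, limma gave 5 lower and 1 higher, beside 12.1% lower and 13.8% higher among all tested genes (25.9% in all). GATAD2A, a subunit that bridges the methyl-DNA binding and remodelling parts, had 376, 352 and 386 in the controls and 249.7, 217 and 197 with DHT and fell by 0.71 ± 0.10 (adjusted p = 0.000919). Its paralogue GATAD2B went from 246 ± 9.58 to 155 ± 15.2 (-0.62 ± 0.10), and MTA1 from 736 ± 91.4 to 466 ± 67.7 (-0.65 ± 0.12). MBD3 went from 573 ± 32.5 to 444 ± 69.4 (-0.37 ± 0.11, limma adjusted p = 0.046), close to the threshold, and did not pass under 11 of the 17 alternatives. Of the other probe sets of GATAD2A, MTA1 and MBD3, 1 each passed as lower and none lay above 0.

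In the SIN3 list 2 of 18 tested genes rose and 2 fell (22.2% passed, beside 12.9% of all tested genes). PHF12, a PHD finger protein that binds the SIN3 complex, had 923, 879 and 904 against 572, 634 and 593 and fell by 0.58 ± 0.07 (limma adjusted p = 0.000553), and its other tested probe set had -0.91. MNT, a MAX partner that recruits SIN3, went from 253 ± 17.8 to 182 ± 11.8 (-0.44 ± 0.10). The histone-binding protein RBBP7 rose from 1298 ± 65.7 to 1586 ± 31.3 (0.29 ± 0.07) and SAP30L from 91.2 ± 1.01 to 129.6 ± 7.46 (0.44 ± 0.11). RBBP7 did not pass under 7 of the 17 alternatives and SAP30L under 9, 4 and 5 of the 6 omissions of 1 culture among them, and other SAP30L probe sets ran from 0.01 to 0.71. Of the 7 tested genes of the NCOR and SMRT complex, TBL1XR1, which tethers the ubiquitin machinery that clears the corepressor, rose from 3254 ± 159 to 4048 ± 182 (0.31 ± 0.07). The histone demethylase KDM4A fell from 346 ± 41.0 to 231 ± 2.24 (-0.54 ± 0.10), and ZBTB33 had 0.12 ± 0.08 (limma adjusted p = 0.382).

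Among partners of CTBP and of the CoREST complex, 1 of 20 tested genes rose and 1 fell (10% passed, beside 12.9% of all tested genes). RREB1, a zinc finger factor found with CTBP, rose from 399.9 ± 53.1 to 553 ± 36.4 (0.46 ± 0.10), while differences in its remaining probe sets ran from -0.02 to 0.12. HMG20B, a CoREST subunit, fell from 593 ± 39.5 to 451 ± 41.0 (-0.39 ± 0.09). TGIF1 (0.27 ± 0.11) and PHF21A (-0.25 ± 0.10) did not pass in their brightest probe sets (limma adjusted p = 0.151 and 0.161). The other tested TGIF1 probe set had 0.64 and passed as higher, and the mean of its probe sets gave 0.45 (limma adjusted p = 0.0148). The other PHF21A probe sets ran from -0.24 to -0.006 and none passed. Of 14 other tested deacetylases, HDAC10 fell and none rose (7.14% passed, beside 12.9% of all tested genes). At an unadjusted p under 0.05 limma gave 3 lower and 2 higher, beside 25.9% of all tested genes. HDAC10, a class II enzyme that acts on polyamines, had 137, 179.9 and 173 in the controls and 76.4, 60.4 and 52.5 with DHT, 2.59-fold lower (-1.18 ± 0.15, limma adjusted p = 0.000578). Its second probe set had -0.04. HDAC7 (-0.56 ± 0.20), HDAC8 (0.43 ± 0.15) and SIRT5 (0.38 ± 0.16) did not pass (limma adjusted p = 0.0922, 0.0987 and 0.145).

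In the remaining list, 2 of 23 tested genes rose and 2 fell (17.4% passed, beside 12.9% of all tested genes). TLE5, a short Groucho family protein, fell from 367 ± 20.1 to 220.1 ± 21.7 (-0.70 ± 0.10), and TRIM28, the corepressor of KRAB zinc finger proteins, from 1626 ± 30.5 to 1136 ± 79.7 (-0.51 ± 0.07). ZMYND11 rose from 1238 ± 71.0 to 1553 ± 49.2 (0.33 ± 0.07), while its remaining probe sets had -0.22 and -0.13 and the mean over all gave -0.010 (limma adjusted p = 0.962). FOXP1 rose from 558 ± 6.56 to 677 ± 55.0 (0.27 ± 0.08, limma adjusted p = 0.047) and did not pass under any leave-out except that of DHT replicate 1. RERE, a paralogue of ATN1, did not pass in its brightest probe set (221 ± 22.3 and 226 ± 18.2). Of its dimmer tested probe sets, 221643_s_at passed as lower in limma over probe sets (-0.82 ± 0.22, adjusted p = 0.0381) and 200939_s_at did not (-0.80 ± 0.26, adjusted p = 0.0759). SFPQ, an RNA-binding protein reported to act with CTBP1-AS and named here for that reason after its values were seen, had 1146 ± 43.9 and 1101 ± 50.5 (-0.06 ± 0.07, limma adjusted p = 0.672).

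**Figure D4:**
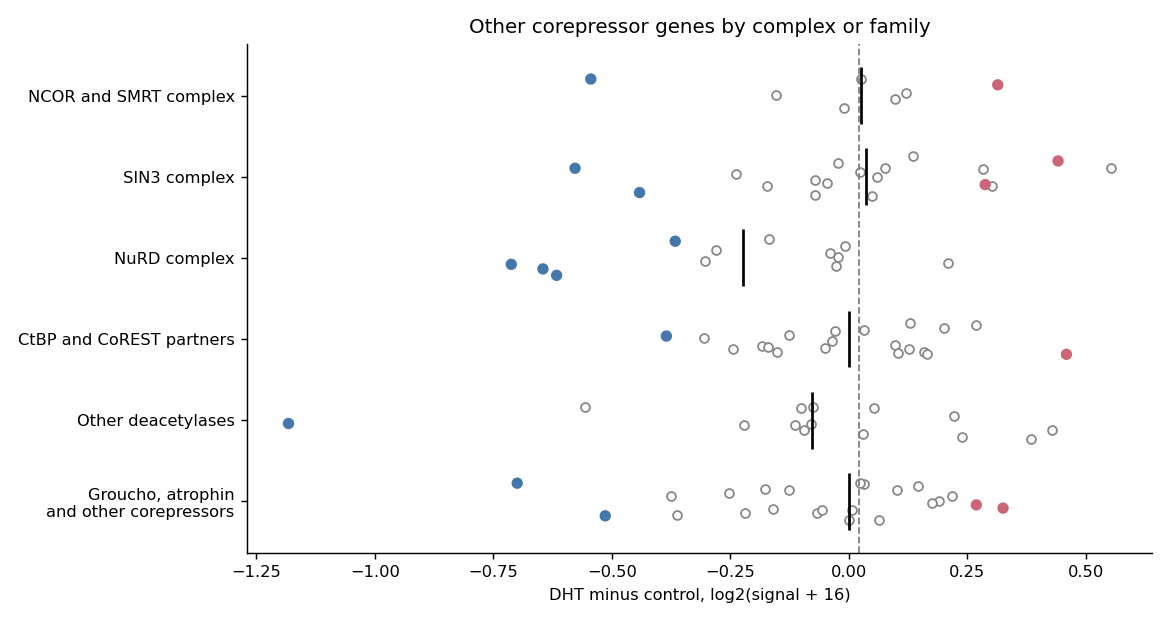
Difference between DHT and control on the log2(signal + 16) scale for the 94 tested genes of the 6 corepressor lists, 1 point per gene, with vertical placement within a list arbitrary. Red points rose (6) and blue points fell (11) at an adjusted p of 0.05, open points did not pass, black bars are list medians (-0.22 for the NuRD complex) and the dashed line is the median of all tested genes (0.02).

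The likeness of whole-array patterns was measured as the root mean square difference between 2 genes over the 6 arrays, each gene centred on its own mean log2(signal + 16). For ATN1 the likest of all tested genes was HDAC10 (0.05), followed by the recycling GTPase RAB11B (0.06) and the nuclear protein MIDN (0.09). For CTBP1 they were GRINA (0.08), CPLX1 (0.12) and PGAP6 (0.12). GRINA went from a mean of 1451 to 721, close to the course of CTBP1. For CTBP1-AS they were GPR158 (0.16), the bicarbonate cotransporter SLC4A4 (0.17) and the ephrin EFNA5 (0.17), the last pair with differences of 1.42 and 1.59. CTBP2 was likest to ARID5A (0.02), FAF1 (0.03) and SEPTIN10 (0.03), none of which differed by more than 0.07. This measure takes in the difference between the groups, so it picks genes whose difference is of like size.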

How the data were processed

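Total RNA of 6 LNCaP cultures was biotin-labelled and read on Affymetrix arrays of 1 colour, as the labels' protocols state. The deposited values are linear MAS5 signal intensities, and the submitters' processing notes name MAS5 without a version. No detection calls were used here. The mean after trimming 2% at both ends was 100.03 on every array, so no further scaling was applied. Of 54675 probe sets, 62 array controls were left out, and the lowest 40% by mean log2 signal were removed, leaving 32768. Groups came from sample titles, and 0 columns were unused.

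The scale of all tests was log2(signal + 16), on which changes of dim genes come out too small, with limma (version 3.58.1 in R 4.3.3; lmFit, eBayes with an intensity trend) and Benjamini-Hochberg adjustment over all tested probe sets or all 14269 genes. With 3 arrays a group, their number limits the precision. Each gene was represented by the brightest probe set annotated to it and to no other, and by one with the suffix _x_at only where no other passed. Of the 41091 probe sets with 1 gene, 41037 matched the RefSeq gene table of GRCh38.p14. The array annotation names no build. Promoter sequences are RefSeq's.

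The members and gene lists were chosen with earlier results of these data known. All member probe sets are accounted for. From each list the 4 tested genes with the smallest adjusted p are named (a Y-linked gene is counted but not named), and the 3 genes likest in pattern to CTBP1, CTBP1-AS, CTBP2 and ATN1. Alternatives were the pseudocount, the limit on dim probe sets, normalisation, variance model, replicate block, mean of probe sets, each array left out and, chosen after the data were seen, scaling to 18 spike probe sets and all settings for single named genes. The fit was tested on simulated data.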

Additional observations from a re-analysis of the deposited data

How the results depend on the processing

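The number of probe sets that passed in limma was 3388 (1669 higher, 1719 lower), and 1264 without the intensity trend, 15481 (254 higher, 15227 lower) with spike scaling and 2066 to 2635 with 1 culture left out, lowest without control replicate 3 and 2147 without DHT replicate 3. Genes of the corepressor lists that rose were 6, and 3 with equal array medians, 0 without the trend, 0 with spike scaling and 1 to 5 with 1 culture left out. Those that fell were 11, and 7 without the trend, 17 with the mean of probe sets, 67 with spike scaling and 8 to 11 with 1 culture left out. Spike scaling moved the median of all tested probe sets to -0.43 and reversed TBL1XR1 (-0.24), ZBTB33 (-0.41), RBBP7 (-0.26), SAP30L (-0.04), RREB1 (-0.075), TGIF1 (-0.24), HDAC8 (-0.040), SIRT5 (-0.11), ZMYND11 (-0.22) and FOXP1 (-0.27). The mean of probe sets reversed ZMYND11 (-0.010). Of 286 differences of member probe sets under the alternatives other than spike scaling, 281 moved by less than 1 SD between replicates, 5 by more, and no called one changed sign. The 281 include the limits on dim probe sets and the replicate block, which cannot change a mean difference. They also include CTBP1-AS with the lowest 60% removed, where it was not tested. Same-numbered cultures did not deviate together (r = -0.03 to -0.001). Deviations centred within 3 cultures balance around 0, so these values do not show whether the cultures were prepared as pairs. With the replicate number as a block 3114 probe sets passed, and 5 listed genes rose and 11 fell. Signals near or under 17.3, as of CTBP1-AS in the controls, set the limit of what these arrays show. Other causes of these changes were not tested.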
